A study of Mus musculus with 6 samples.

Results

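The S100 calcium-binding protein family was followed through the RNA of primary hepatocytes from alcohol-fed mice in which 1 of its genes, S100a16, had been deleted on one allele. The family was taken as the rows of the deposited expression table named S100a1, S100a2, S100a3, S100a6, S100a8, S100a9, S100a10, S100a11, S100a13 and S100a16, which are 10 of 25718 genes. Hepatocytes, the parenchymal cells of the liver, came from alcohol-fed WT mice (3 libraries) and alcohol-fed S100a16KO+/- mice (3 libraries). The mice were males aged 8 to 10 weeks, and all of them, in both groups, received ethanol, so no library from a control diet enters these comparisons. Per the study's methods, a control liquid diet was given for 5 days and then a diet with 5% ethanol for 10 days, and the mice were killed 9 h after an oral gavage of 5 g/kg ethanol. The S100a16KO+/- mice carried an S100a16 allele with exons 2 to 3 floxed, which EIIa-Cre, a Cre driven by a promoter active in the early embryo, had deleted throughout the body on a mainly C57BL/6 background. The deletion was thus not limited to hepatocytes. The sample labels call this genotype S100A16 knockdown, whereas the description of the series and the methods name heterozygous knockout mice. No source used here says whether 1 library is 1 mouse, so p values measure the spread between these libraries, which may be partly technical.

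S100 proteins are small EF-hand proteins that bind calcium, mostly as dimers, and then attach to and regulate other proteins. Some members act inside parenchymal and muscle cells, others are abundant in myeloid cells, from which S100A8 and S100A9 are released together as calprotectin, a damage signal sensed by TLR4 and RAGE. Most of the genes lie side by side in one cluster, and the comparison asks what happened to the neighbours and relatives of S100a16 when its own RNA was reduced.

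In mm10, the build named in the submitters' processing notes (GRCm38), all 10 members lie on chromosome 3. S100a16 (ENSMUSG00000074457) spans chr3:90537254-90543151 on the plus strand. S100a1, S100a13, S100a2, S100a3, S100a6, S100a8 and S100a9 lie within 1 Mb of it, whereas S100a11 and S100a10 lie 2977337 and 3011929 bases away. The main S100a16 transcript in GENCODE M21 has a non-coding exon 1, and all of its coding bases stand in exons 2 and 3, the exons that were floxed. These coding parts are shown because they are what the deleted allele lacks if the study numbers exons as this transcript does, with the start codon in capitals, the plus strand, and the stop codon left out. Exon 2 contributes 153 bases at chr3:90542020-90542172 and exon 3 contributes 219 bases at chr3:90542365-90542583, together 124 codons, read from GENCODE M21.
S100a16 exon 2: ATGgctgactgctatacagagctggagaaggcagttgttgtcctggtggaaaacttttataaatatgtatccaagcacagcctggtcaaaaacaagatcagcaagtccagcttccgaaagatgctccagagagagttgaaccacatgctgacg
S100a16 exon 3: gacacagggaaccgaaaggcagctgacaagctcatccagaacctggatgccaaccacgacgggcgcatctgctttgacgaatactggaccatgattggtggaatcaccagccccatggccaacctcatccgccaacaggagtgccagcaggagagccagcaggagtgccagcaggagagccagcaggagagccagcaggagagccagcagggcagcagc

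The annotated coding sequences of the family ranged from 89 codons in S100a6 and S100a8 to 160 codons in S100a13. Despite the shared protein fold, the longest run of identical bases between transcripts of any 2 members was 19 bases (S100a6 and S100a9), and S100a16 shared at most 14 bases with another member. No pair of the 45 shared a run as long as a 150-base read. These runs were measured on the transcripts that M21 gives for each gene name and do not cover the transcripts that the table lists for its S100a2 row.

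S100a1 and S100a13 stand head to head, with the start of S100a1 on the minus strand and that of S100a13 on the plus strand separated by 42 bases at chr3:90514393-90514434. The stretch between both starts is shown because 2 of the 3 most abundant members begin on either side of it, on the plus strand, from RefSeq on GRCm38.p6.
S100a1 to S100a13: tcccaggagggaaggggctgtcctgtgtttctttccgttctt
It was searched on both strands for the TATA box (TATAAA), the CCAAT box (the 5 letters of its name), the GC box (GGGCGG) and the E-box (CACGTG), and none of them was found.

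The libraries were close in depth, with 67658095 to 71807834 estimated counts each. The first principal component separated the genotypes (58.9% of the variance), and the second (12.8%) set WT library 1 and S100a16KO+/- library 2 apart from the other 4. Without both, the S100a10 call was lost (adjusted p = 0.0754) and S100a1 was called lower (log2 fold change -0.22, adjusted p = 0.0405), while S100a16, S100a2 and S100a3 were called as before.

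The labels were checked first on the targeted gene. S100a16 fell to 38.0% of its WT level in S100a16KO+/- hepatocytes. In FPKM, fragments scaled for exon length and library depth, S100a16 measured 7.67, 8.55 and 9.07 in WT, against 3.52, 3.17 and 2.92 in S100a16KO+/-. The groups did not overlap, and the highest S100a16KO+/- library lay well under the lowest WT library. The estimated counts behind these values were 1001, 1056 and 1107 in WT and 433, 390 and 366 in S100a16KO+/-. The log2 fold change was -1.40 with a standard error of 0.11 (95% interval -1.63 to -1.16, adjusted p = 4.14e-07 by edgeR's quasi-likelihood test with Benjamini-Hochberg adjustment). Expressed as a share of WT, the interval ran from 32.2% to 44.7%, so its upper end lay below 50%. The table gives 1 value per gene and library, in which any reads from a transcript of the deleted allele are not separated.

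Of the 10 members, all passed the low-count filter and 4 were called between genotypes at an adjusted p under 0.05, beside 22.8% of all 15957 genes tested. S100a16 and S100a10 fell, against a background of 11.2% of genes called lower, and the rows named S100a2 and S100a3 rose, against a background of 11.6% called higher. S100a2 and S100a3 passed the filter only through the S100a16KO+/- libraries and had to differ, so they add nothing to a count of members. The other 6 members, S100a1, S100a6, S100a8, S100a9, S100a11 and S100a13, did not pass the test. By the rule of the study's methods, an unadjusted p under 0.05 with a fold of at least 2, 3 members passed (S100a16 lower, S100a2 and S100a3 higher), beside 4.52% of all genes (2.90% higher and 1.62% lower). CPM is estimated counts scaled to library size by TMM with no correction for length. On this scale 6 members did not overlap between genotypes, beside 37.9% of all genes. In S100a16KO+/-, 4 of them were higher (S100a2, S100a3, S100a6 and S100a8) and 2 lower, beside 19.2% and 18.6% of all genes. The log2 fold change was above 0 for 7 members, S100a2 and S100a3 among them, and below 0 for 3. The median of 0.39, beside 0.01 over all genes tested, includes both rows and is raised by them.

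**Figure D1:**
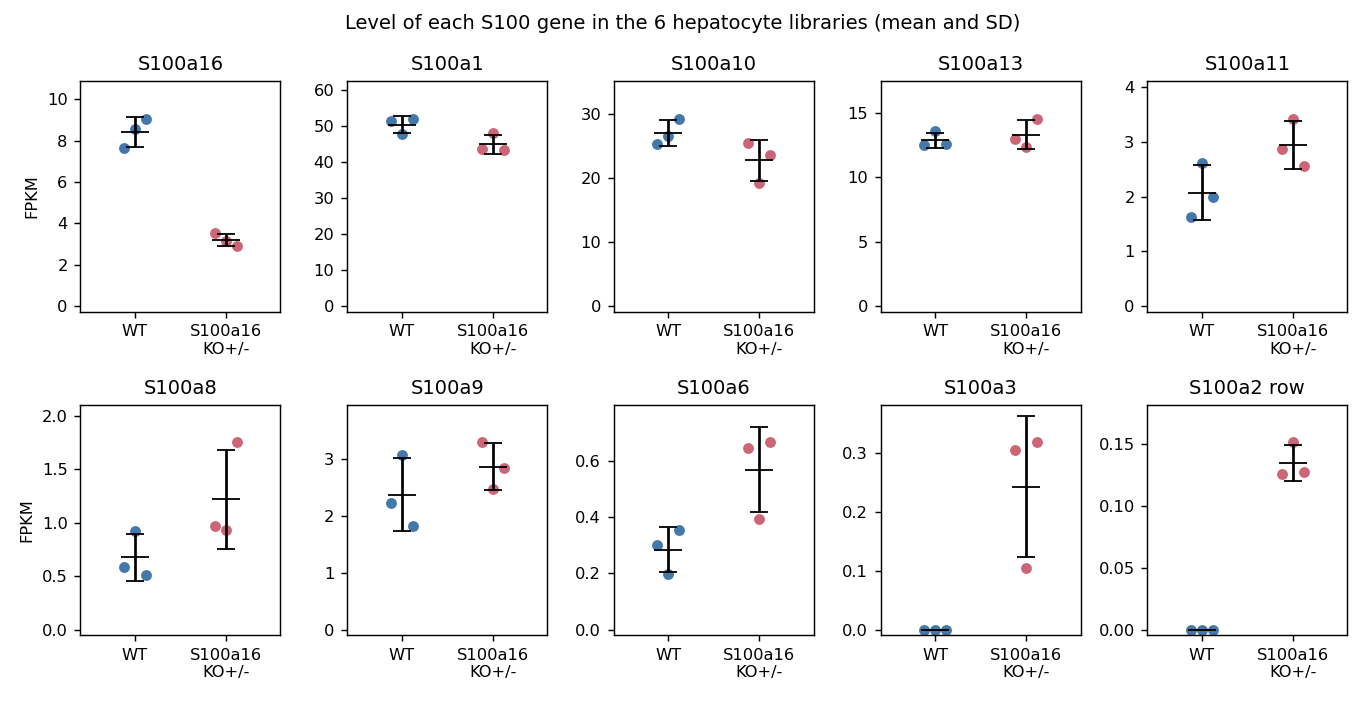
FPKM of the 10 S100 genes, 1 panel per gene with its own axis from 0, in the 3 WT (blue) and 3 S100a16KO+/- (red) libraries; black bars give the mean and SD. S100a16 sits at 7.67 to 9.07 FPKM in WT and at 2.92 to 3.52 FPKM in S100a16KO+/-, S100a1 and S100a13 overlap between the genotypes, S100a10 ranges from 19.2 to 29.2 FPKM over the 6 libraries, and the rows named S100a2 and S100a3 are at 0 in every WT library.

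S100a1, S100a10 and S100a13 carried most of the family's RNA in these hepatocytes, and none of them was called higher when S100a16 fell. S100a1, best known as a regulator of calcium handling in heart and skeletal muscle, was the most abundant member. It stood at 51.3, 47.6 and 52.0 FPKM in WT and at 43.5, 47.9 and 43.3 FPKM in S100a16KO+/-. S100a16KO+/- library 2 reached the WT range and the other two lay below it, so the groups overlapped. S100a1 had a log2 fold change of -0.17 with a standard error of 0.08 (95% interval -0.35 to 0.01, adjusted p = 0.168, edgeR). As a share of WT, the interval of S100a1 ran from 78.6% to 100.5%. Without S100a16KO+/- library 2 the log2 fold change was -0.26 and the call was made (adjusted p = 0.0190).

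S100a10 (p11), the partner of annexin A2 at the plasma membrane, lacks working calcium-binding loops and is held in its active form at all times. It measured 25.2, 26.5 and 29.2 FPKM in WT and 25.4, 19.2 and 23.6 FPKM in S100a16KO+/-. In FPKM the groups overlapped by 1 library, while in CPM, the scale of the test, they did not (34.8 to 39.0 in WT, 27.4 to 33.8 in S100a16KO+/-). S100a10 fell to 83.6% of WT, a log2 fold change of -0.26 with a standard error of 0.08 (95% interval -0.43 to -0.09, adjusted p = 0.0296, edgeR). This call was lost when 1 of several libraries was left out. Without WT library 1 or S100a16KO+/- library 3 the log2 fold change stayed at -0.27 and -0.26 (adjusted p = 0.0574 and 0.0841), and without WT library 3 or S100a16KO+/- library 2 it was -0.21 and -0.19 (adjusted p = 0.140 and 0.0870). Annexin A2 itself (Anxa2) had a low level, 1.80, 2.70 and 3.40 CPM in WT and 3.56, 3.89 and 3.62 CPM in S100a16KO+/-, which did not pass the test (log2 fold change 0.49 with a standard error of 0.21, adjusted p = 0.124, edgeR).

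S100a13, which binds FGF1 and copper and takes part in the release of FGF1 without a signal peptide, is the head-to-head neighbour of S100a1. Its level was 12.5, 13.6 and 12.6 FPKM in WT and 12.98, 12.4 and 14.6 FPKM in S100a16KO+/-. The groups covered each other almost fully. Its log2 fold change was 0.04 with a standard error of 0.10 (95% interval -0.17 to 0.24, adjusted p = 0.844, edgeR), and its interval as a share of WT ran from 88.7% to 118%. Without S100a16KO+/- library 3 the estimate was -0.01. S100a13 is the nearest member to S100a16, at 12673 bases, and S100a1 lies at 22862 bases.

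S100a11 (calgizzarin), which binds annexin A1 and is widely expressed in epithelia, was a low member with 1.62, 2.61 and 1.99 FPKM in WT and 2.87, 3.43 and 2.56 FPKM in S100a16KO+/-. S100a16KO+/- library 3 lay below WT library 2, and the other two S100a16KO+/- libraries lay above all WT libraries. The log2 fold change was 0.52 with a standard error of 0.26 (95% interval -0.05 to 1.09, adjusted p = 0.189, edgeR).

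The subunits of calprotectin, S100a8 and S100a9, are hallmark genes of neutrophils and monocytes. S100a8 measured 0.591, 0.923 and 0.513 FPKM in WT and 0.970, 0.935 and 1.75 FPKM in S100a16KO+/-. All 3 S100a16KO+/- libraries stood above the WT libraries, but by a thin margin, because WT library 2 and S100a16KO+/- library 2 both held 50 counts, or about 12.5 fragments. For S100a8 the log2 fold change was 0.83 with a standard error of 0.39 (95% interval -0.00 to 1.66, adjusted p = 0.151, edgeR). S100a9 measured 2.23, 3.08 and 1.82 FPKM in WT and 3.30, 2.48 and 2.84 FPKM in S100a16KO+/-, with overlap. Its log2 fold change was 0.27 with a standard error of 0.26 (95% interval -0.28 to 0.82, adjusted p = 0.520, edgeR).

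Other neutrophil genes were also scarce, and the defining markers were scarcer than S100a8 and S100a9. Of 14 markers of neutrophils, 12 were in the table, 5 passed the filter and 0 were called by edgeR, with 2 at an unadjusted p under 0.05 (Csf3r and Mmp9) and 0 called by DESeq2 or limma voom. Their summed level was 3.17 to 5.04 CPM in WT and 4.91 to 7.20 CPM in S100a16KO+/-, ranges that overlapped. Csf3r, the receptor for the neutrophil growth factor G-CSF, had 1.49, 2.13 and 1.53 CPM in WT and 2.81, 3.33 and 2.00 CPM in S100a16KO+/- (log2 fold change 0.66, adjusted p = 0.0639, edgeR). The defining neutrophil markers Ly6g, Camp, Ngp, Ltf, Elane and Mmp8 stood at 0 in 23 of 36 library values and did not pass 14 counts in any library, with 12 counts the level of 3 fragments. S100a8 had 27 to 95 counts per library and S100a9 had 72 to 131. For comparison, the summed level of S100a8 and S100a9 was 1.45 to 2.46 CPM in WT and 2.32 to 2.93 CPM in S100a16KO+/-. In bulk RNA, fewer cells of a type and less RNA per cell cannot be told apart, and the part of blood cells in these values was not tested.

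S100a6 (calcyclin), a gene of proliferating cells and fibroblasts, measured 0.299, 0.196 and 0.354 FPKM in WT and 0.645, 0.393 and 0.665 FPKM in S100a16KO+/-. The groups did not overlap. Its log2 fold change was 0.96 with a standard error of 0.39 (95% interval 0.11 to 1.80), and its adjusted p of 0.0999 by edgeR missed the threshold. Of 11 tested markers of stellate cells and fibroblasts, 5 were called higher and 0 lower, beside 11.6% of all genes called higher, and 6 did not pass the test (median log2 fold change 0.74). Their summed level was 39.4 to 42.3 CPM in WT and 71.5 to 77.1 CPM in S100a16KO+/-, led by Dcn (decorin) at 23.7 to 25.4 and 44.7 to 51.9 CPM. Their part in the level of S100a6 was not tested.

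S100a3, a protein of hair cuticle cells, was at 0 counts in every WT library and at 62, 22 and 66 counts in the S100a16KO+/- libraries (0.304, 0.105 and 0.318 FPKM). Its mean CPM in S100a16KO+/- was 4.13-fold the level of the 12 counts per library that a count of 0 allows (adjusted p = 0.000131, edgeR). The row named S100a2 was likewise at 0 counts in every WT library and at 38, 45 and 40 counts in S100a16KO+/- (0.125, 0.151 and 0.127 FPKM). Its mean CPM was 3.46-fold that level (adjusted p = 0.000139, edgeR). Both ratios leave out the counting error of the S100a16KO+/- libraries and are not lower bounds. About 4 counts correspond to 1 sequenced fragment, so the S100a16KO+/- libraries held 5.5 to 16.5 fragments of S100a3 and 9.5 to 11.2 of the S100a2 row. Neither row passed a filter set on counts divided by 4, and since both were at 0 in WT and entered the test through S100a16KO+/- alone, their p values are given as a description only.

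The row named S100a2 does not list the coding transcript that GENCODE M21 gives for S100a2. The table lists 3 transcripts for it over chr3:90560363-90591531, of which 1 is found in GENCODE M21. There it is a non-coding transcript of 3143 bases that belongs to S100a3. The other 2 are not in M21, so which exons they cover is not known here, and the coding S100a2 transcript of M21, at chr3:90590247-90591508, is not listed. The FPKM values of the row correspond to an exon length of 3997 bases, which is far longer than an S100 messenger RNA. The table's S100a3 row lists 2 transcripts, a coding one of 712 bases and one of 2458 bases with retained introns, which lie at chr3:90600215-90602702, and its FPKM values correspond to an exon length of 2686 bases. The name S100a2 is kept for the row as the table gives it. RefSeq gives S100a3 more than 1 start. The 250 bases before the start next to the listed coding transcript are shown because S100a3 RNA was counted in S100a16KO+/- libraries and in no WT library. They lie on the plus strand at chr3:90599964-90600213, from RefSeq on GRCm38.p6, with a GC box (GGGCGG, searched on both strands) in capitals.
S100a3 upstream: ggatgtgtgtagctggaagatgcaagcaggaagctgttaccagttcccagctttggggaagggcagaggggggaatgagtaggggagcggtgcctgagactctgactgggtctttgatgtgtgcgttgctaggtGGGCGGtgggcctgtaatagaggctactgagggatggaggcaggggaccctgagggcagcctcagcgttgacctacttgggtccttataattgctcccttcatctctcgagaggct
The GC box occurs in 32.7% of 32851 such windows of all genes and in 4 of the 12 windows of members, and it overlaps none of the other motifs searched. The window shown holds no TATA box (12.4% of all windows), CCAAT box (33.8%) or E-box (6.02%). Another S100a3 window, at chr3:90588313-90588562, holds a TATA box and a CCAAT box.

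The table also held 4 S100 genes outside the set, all of them near the limit of detection. S100a4 (FSP1), a gene of fibroblasts and immune cells that adjoins S100a3, had 0, 11 and 7 counts in WT and 27, 16 and 26 counts in S100a16KO+/-. The groups did not overlap. The mean CPM of S100a4 in S100a16KO+/- was 1.92-fold the level of 12 counts. This ratio leaves out the counting error of the S100a16KO+/- libraries and is not a lower bound. In the edgeR fit its log2 fold change was 1.93 with a standard error of 0.89 (interval 0.02 to 3.83). The adjusted p of 0.144 for S100a4 by edgeR missed the threshold (unadjusted p = 0.0475). S100a14, an epithelial gene 8417 bases from S100a16, had 0 counts in each WT library and 12, 7 and 4 counts in S100a16KO+/-, at or under the limit throughout. S100b and S100g reached at most 4 counts, or 1 fragment, in any library. Of these 4 genes edgeR and limma voom tested 1 (S100a4), at an unadjusted p under 0.05 in both, and called 0. DESeq2 had 2 (S100a14 and S100a4) at an unadjusted p under 0.05, gave no adjusted p for S100a4 and called 0. With so few tested, the 0 calls are given as a description only. An annotated transcript of Gm42674 runs through S100a3 and S100a4 and shares 144 exon bases with the former and 302 with the latter. The strands were not compared, so whether reads on these bases can be assigned to one gene is not known here.

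**Figure D2:**
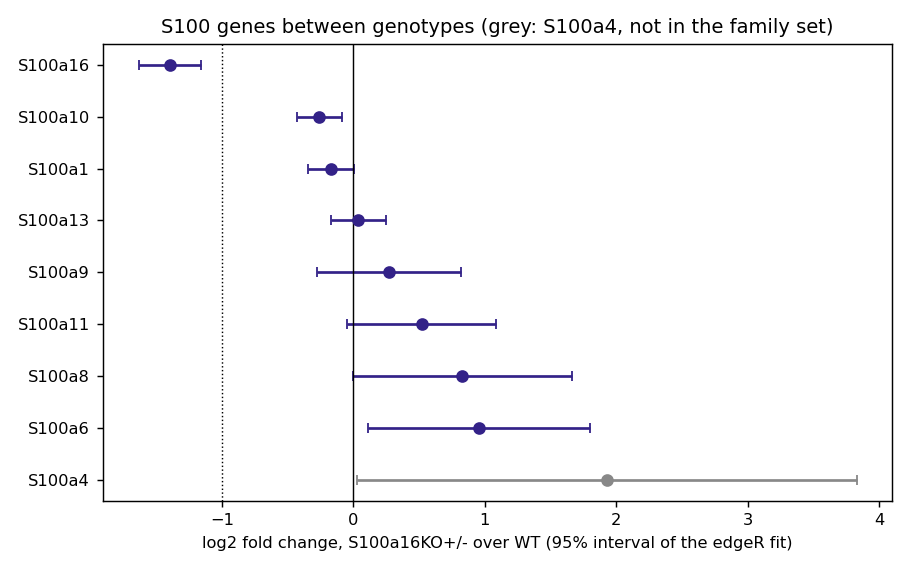
log2 fold change of S100a16KO+/- over WT with its 95% interval from the edgeR fit for 8 members and S100a4 (grey); the dotted line marks a log2 fold change of -1. Intervals of S100a16 and S100a10 lie below 0, those of S100a1, S100a13, S100a9, S100a11 and S100a8 include 0, that of S100a6 lies above 0 although its adjusted p missed the threshold, and the rows named S100a2 and S100a3, at 0 counts in WT, have no bounded estimate and are not drawn.

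Within WT hepatocytes the members fell into an abundant and a scarce group. The FPKM means ran from S100a1 (50.3 ± 2.37, SD, n = 3) and S100a10 (27.0 ± 2.03) through S100a13 (12.9 ± 0.588) and S100a16 (8.43 ± 0.711) to S100a9 (2.38 ± 0.642), S100a11 (2.08 ± 0.499), S100a8 (0.676 ± 0.218) and S100a6 (0.283 ± 0.0799), with S100a3 and the S100a2 row at 0. S100a9 and S100a11 overlapped and their order is not resolved, and no other neighbours in this order overlapped between WT libraries down to S100a6. On this scale, in S100a16KO+/- hepatocytes, S100a16 (3.20 ± 0.302) came level with S100a11 (2.95 ± 0.439) and S100a9 (2.87 ± 0.413), whose libraries overlapped with those of S100a16.

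The order of the leading members depends on the length used. The deposited FPKM divides by all exon bases that the table lists for a gene, 1212 for S100a10 and 1621 for S100a16, although their longest coding transcripts have 685 and 1127 bases. Per kilobase of the longest coding transcript, S100a10 stood at 47.8 ± 3.60 in WT, beside 51.6 ± 2.43 for S100a1, and the libraries of both overlapped. On the same scale S100a16 was at 12.1 ± 1.02 and S100a13 at 12.9 ± 0.589 in WT, again with overlap. In S100a16KO+/-, S100a16 was at 4.61 ± 0.434 and S100a13 at 13.3 ± 1.14 per kilobase of coding transcript, and all S100a16 libraries then stood above those of S100a11 (2.57 to 3.44) and S100a9 (2.50 to 3.33). A fold change within a gene does not depend on this choice.

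Added up, the remaining family was lower and not higher in S100a16KO+/- hepatocytes. The summed level of the 9 members other than S100a16 was 93.8, 94.5 and 98.5 FPKM in WT and 90.1, 86.9 and 89.7 FPKM in S100a16KO+/-, without overlap and with the S100a16KO+/- libraries lower. The means were 95.6 ± 2.55 and 88.9 ± 1.72 FPKM, so the 9 members stood at 93.0% of WT. S100a16 lost 5.23 FPKM, and S100a1 and S100a10 were lower by 5.42 and 4.27 FPKM, the first without passing the test. On the deposited FPKM scale the largest gain of any member was 0.877, in S100a11, and per kilobase of coding transcript it was 0.914, in S100a3. The 6 scarce members (S100a2, S100a3, S100a6, S100a8, S100a9 and S100a11) together went from 5.41 ± 1.21 to 7.99 ± 0.433 FPKM, and their S100a16KO+/- range of 7.49 to 8.27 lay above the WT range of 4.68 to 6.81. This sum includes S100a3 and the S100a2 row, which were at 0 in WT and had to differ. Their means in S100a16KO+/- were 0.242 and 0.135 FPKM, so the gap between the ranges is partly given by the choice of rows. With S100a16 included, the family summed to 104.0 ± 3.18 FPKM in WT and 92.1 ± 1.81 FPKM in S100a16KO+/-. No p is given for these sums, because the members were chosen with results known.

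The makeup of the family's RNA changed mainly through S100a16 itself. S100a16 gave 8.10% ± 0.473 of the summed FPKM in WT and 3.47% ± 0.307 in S100a16KO+/- (SD, n = 3). S100a1 held 48.4% ± 2.19 and 48.8% ± 3.79, and S100a10 25.9% ± 1.16 and 24.6% ± 3.03. S100a13 went from 12.4% ± 0.729 to 14.4% ± 1.12 and S100a11 from 2.00% ± 0.484 to 3.21% ± 0.535, and the level of S100a11 itself went from 2.08 to 2.95 FPKM without passing the test.

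**Figure D3:**
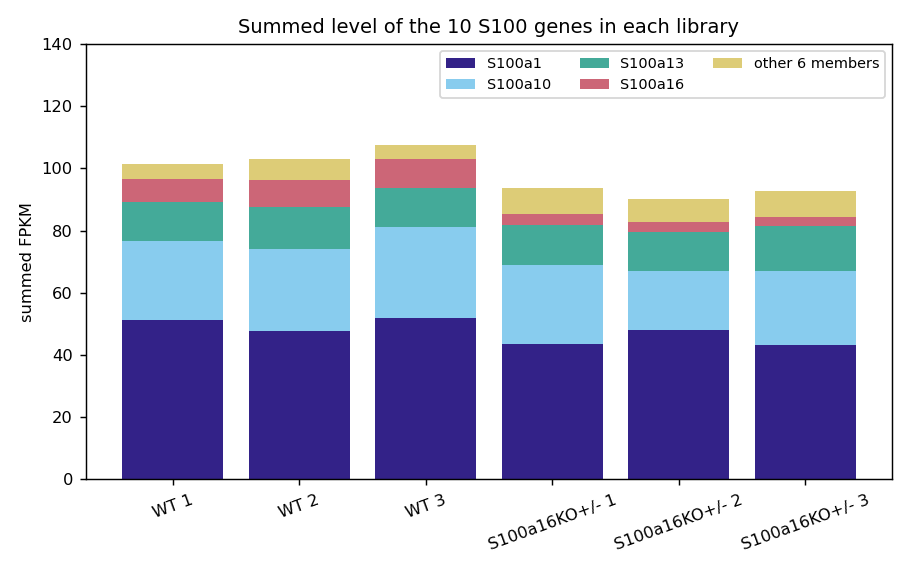
Summed FPKM of the 10 S100 genes in each of the 6 libraries, stacked by S100a1, S100a10, S100a13, S100a16 and the other 6 members. WT libraries reach 101.5 to 107.6 FPKM and S100a16KO+/- libraries 90.1 to 93.6 FPKM, and the S100a16 segment shrinks while no other segment grows by the same amount.

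The proteins that S100 members bind or signal through were compared in the same fit. Of 20 receptors and partners, 19 were tested and 4 were called, 2 higher and 2 lower, a share of 21.1% beside 22.8% of all genes, with a median log2 fold change of 0.07. Fgf1, the growth factor that S100A13 helps to export, fell from 92.8, 81.8 and 91.2 CPM in WT to 61.8, 60.9 and 61.7 CPM in S100a16KO+/- (log2 fold change -0.53 with a standard error of 0.06, adjusted p = 1.62e-05, edgeR). The giant scaffold gene Ahnak, whose product binds the S100A10 and annexin A2 complex, rose by 0.50 on the log2 scale (adjusted p = 0.0134), and Iqgap1, a cytoskeletal scaffold bound by S100 proteins, by 0.39 (adjusted p = 0.0354). Mdm2, the ubiquitin ligase of p53 and a partner of several S100 proteins, fell by 0.26 on the log2 scale (adjusted p = 0.0378). Tlr4 and Ager, which encode the receptors TLR4 and RAGE of S100A8 and S100A9, were scarce, with Tlr4 at 1.05 to 1.46 CPM in WT and 0.591 to 1.21 CPM in S100a16KO+/- (log2 fold change -0.28, adjusted p = 0.616) and Ager at 0.278 to 0.687 and 0.305 to 0.837 CPM (0.34, adjusted p = 0.692). Bsg (basigin), a further S100A9 receptor, was the most abundant of the list at 401.8 ± 13.1 CPM in WT and 395.6 ± 18.6 CPM in S100a16KO+/- (-0.02, adjusted p = 0.813), followed by Anxa6 at 112.6 ± 4.11 and 115.8 ± 3.44 CPM. The number called in this list fell to 1 without WT library 1 or without S100a16KO+/- library 3 and to 2 without WT library 3.

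Among other EF-hand calcium-binding proteins, 5 of 18 tested were called higher and 1 lower, a share of 33.3% beside 22.8% of all genes, and 11.6% of all genes called higher, with a median log2 fold change of 0.03. Of those that rose, 4 are in the endoplasmic reticulum or Golgi lumen. Rcn3 (reticulocalbin 3) rose from 0.952, 0.980 and 1.05 CPM to 2.45, 2.02 and 1.71 CPM (log2 fold change 1.05 with a standard error of 0.24, adjusted p = 0.00634, edgeR) and Rcn1 from 5.55 ± 0.429 to 9.23 ± 0.554 CPM (0.73, adjusted p = 0.000396). Calu (calumenin) rose from 76.6 ± 3.62 to 98.7 ± 2.74 CPM and Sdf4, a Golgi protein, by 0.23 on the log2 scale (adjusted p = 0.00858). Rgn (regucalcin), which the list holds as a calcium-binding protein of hepatocytes though it has no EF-hand, fell by 0.23 on the log2 scale (adjusted p = 0.0469). Chp1 had the highest mean level of the list over all libraries, at 178.5 ± 1.25 CPM in WT and 182.4 ± 2.57 CPM in S100a16KO+/- (0.03, adjusted p = 0.716). Rgn stood at 183.0 and 155.9 CPM.

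Around S100a16, 50 genes of the table lie within 1 Mb, of which 34 were tested and 10 were called, 8 higher and 2 lower (29.4%, beside 22.8% of all genes), with a median log2 fold change of 0.10. Without S100a3 and the S100a2 row, which entered only through the S100a16KO+/- libraries, 8 of 32 were called, 6 higher and 2 lower, with a median of 0.06. Toward the S100a13 side 8 of 28 tested genes were called, with a median log2 fold change of -0.00. On the other side the 6 tested genes were all S100 rows, of which the 2 called were S100a3 and the S100a2 row. The other 4 (S100a4, S100a6, S100a8 and S100a9) had log2 fold changes of 0.27 to 1.93 and were not called. S100a4, with at most 11 counts in any WT library, passed the filter mainly through the S100a16KO+/- libraries. The called genes with the largest changes at 1 CPM or more were Atp8b2, a phospholipid flippase (log2 fold change 0.91, adjusted p = 0.0305), Chrnb2, a nicotinic receptor subunit (0.80, adjusted p = 0.00505), Dennd4b (0.52, adjusted p = 0.0213) and She (0.51, adjusted p = 0.0382). They lie at distances of -772.6 to -256.6 kb from S100a16 on the S100a13 side, further away than S100a13 and S100a1. Nearer on that side, Npr1 at -71.4 kb was called higher (log2 fold change 0.49, adjusted p = 0.00164, edgeR) and Chtop at -27.8 kb lower (-0.21, adjusted p = 0.0444). The most abundant neighbours, Rps27 (0.55 with a standard error of 0.50, adjusted p = 0.541) and Slc39a1 (-0.13, adjusted p = 0.118), did not pass the test. Without WT library 1 the number called within 1 Mb was 5, and without WT library 3 or S100a16KO+/- library 3 it was 6.

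**Figure D4:**
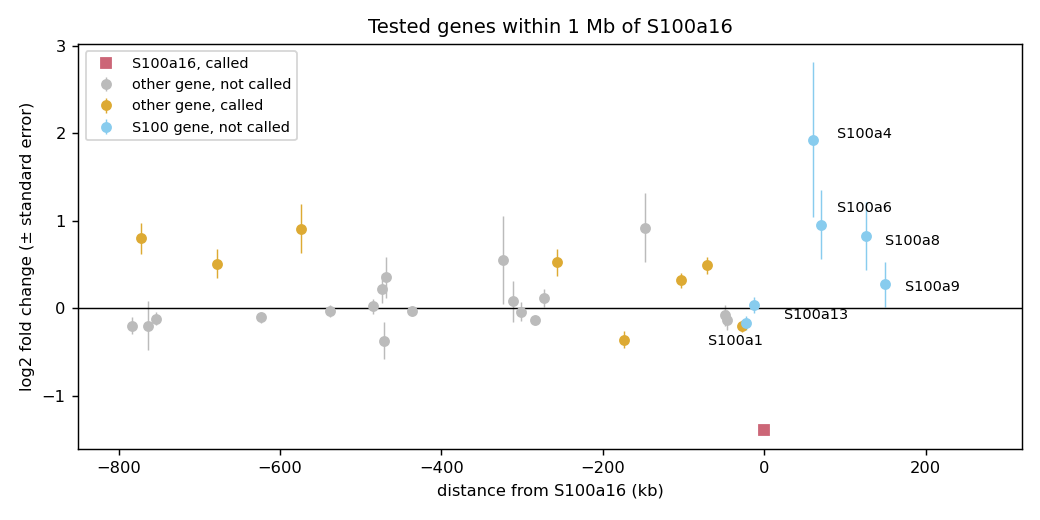
log2 fold change (± standard error of the fit) of the tested genes within 1 Mb of S100a16 against their distance from it in kb; the square is S100a16, orange points are called, grey and light blue points are not, and light blue marks S100 genes. The 2 called S100 rows at 0 counts in WT (S100a2, S100a3) are left out because their fold is not bounded, and S100a1 and S100a13, the members on the left side, lie close to 0.

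The genes most like S100a16 over the 6 libraries, by the root mean square difference of their centred log2(CPM + 1) profiles among 9208 genes at a mean of at least 4 CPM, were Hdhd3 (0.0800), Inhba (0.0916), Slc30a1 (0.0946), Sgk2 (0.0948) and Bhmt (0.0962). Bhmt, the liver enzyme that passes a methyl group from betaine to homocysteine, was the most abundant of them at 5434, 5215 and 5505 CPM in WT and 2310, 2247 and 2325 CPM in S100a16KO+/-. Of the other S100 genes only S100a1, S100a10 and S100a13 reached that mean, and none was among these 5. All 5 were picked for a profile like that of S100a16, so their fall was part of the choice. Their log2 fold changes ran from -1.46 (Hdhd3) to -1.21 (Slc30a1).

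Markers of other cells were read in every library, since S100 genes mark many cell types besides hepatocytes. Hepatocyte markers made up 138255 to 149860 CPM in WT and 136714 to 148965 CPM in S100a16KO+/-, ranges that overlapped and that Alb (albumin) dominates. Of 15 hepatocyte markers 7 were called, 3 higher and 4 lower, beside 22.8% of all genes called, 11.6% higher and 11.2% lower, a background that also stands beside the lists that follow. Pck1, which encodes an enzyme of glucose synthesis, rose by 1.36 on the log2 scale (adjusted p = 2.39e-11, edgeR), and Cyp2e1, the ethanol-oxidising cytochrome, fell by 0.33 (adjusted p = 0.000106). Endothelial markers were called in 10 of 10 cases, 9 higher and 1 lower (Lyve1), with a summed level of 214.0 to 228.2 CPM in WT and 306.8 to 315.1 CPM in S100a16KO+/-. Macrophage markers summed to 204.7 to 237.7 and 243.1 to 262.1 CPM, with 5 of 17 tested (29.4%) called higher and 0 lower. Lymphocyte markers summed to 9.37 to 12.5 and 11.3 to 12.3 CPM, with 1 of 12 (8.33%) called, lower. Erythroid markers, mostly globins, were called lower in 5 of 5 cases, from 214.8 to 252.2 CPM down to 23.4 to 26.3 CPM. Cholangiocyte markers had 1 of 5 called, lower, and platelet markers 0 of 3, with 0 at an unadjusted p under 0.05 by edgeR and 0 called by DESeq2 or limma voom. The part of these cells in the levels of the scarce S100 members was not tested.

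**Figure D5:**
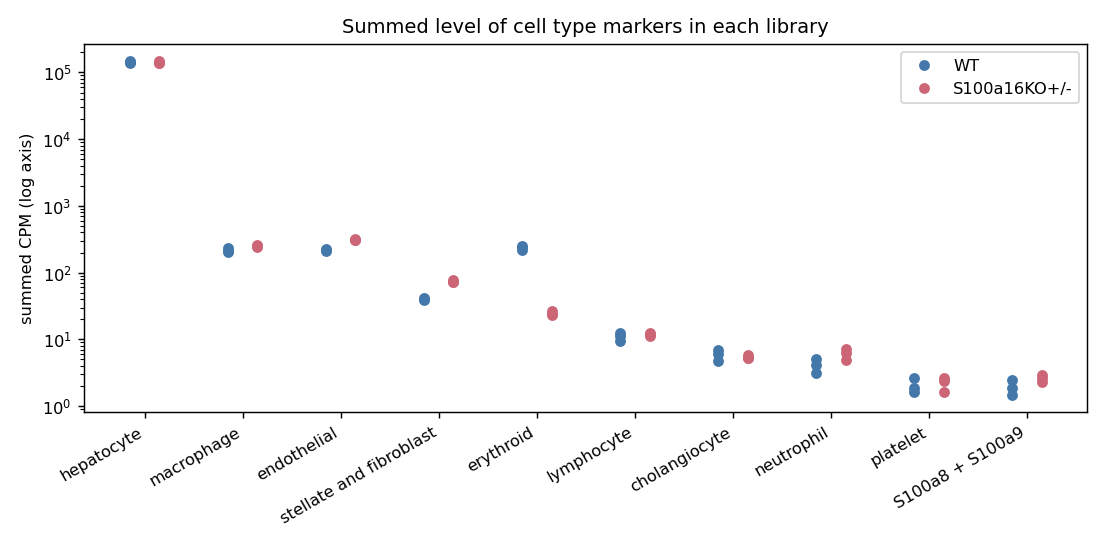
Summed CPM, on a log axis, of 9 marker lists and of S100a8 with S100a9 in the WT (blue) and S100a16KO+/- (red) libraries, 1 point per library. Endothelial and stellate cell markers lie higher and erythroid markers lower in S100a16KO+/-, while S100a8 with S100a9 stays at 1.45 to 2.93 CPM, far under the macrophage and endothelial lists.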

How the data were processed

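Per the labels, RNA of primary hepatocytes was sequenced from 2 genotypes, WT and S100a16KO+/-, after alcohol feeding, with 3 libraries each (poly(A)-selected, strand-specific paired libraries with molecular identifiers). The submitters' processing notes name cutadapt 1.9, HISAT2 2.0.4, UMI-tools, StringTie 1.3.4d, DESeq2, edgeR and mm10, with no order or setting. The authors deposited 1 table with estimated counts, not scaled for depth, and FPKM, scaled for depth and for all listed exon bases of a gene. In genes with 1 listed transcript, 94.4% to 95.0% of implied lengths per library were within 5% of the transcript, so lengths were read from count and FPKM. About 4 estimated counts were worth 1 fragment, and 12 counts (3 fragments) per library was taken as the limit that a count of 0 allows, for counting error only.

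Estimated counts, rounded to whole numbers, were compared with edgeR 4.0.16 in R 4.3.3 (TMM, filterByExpr, robust quasi-likelihood fit, two-sided, no covariate), with Benjamini-Hochberg adjustment over 15957 genes. A call is an adjusted p under 0.05. The fit was tested on simulated data. Positions were compared with GENCODE M21 (25655 of 25718 genes found, 89.7% of them with the same start and end).

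The members and gene lists were chosen with earlier results of these data known. Named genes were all members, the other S100 genes and, of each further list and the 1 Mb region, up to 4 called genes with the largest change at 1 CPM or more and up to 2 of the highest level, plus the 5 genes most like S100a16. The values of 1 gene that this rule names are not reported here. Anxa2, Tlr4, Ager, Sdf4, Csf3r, Mmp9, Lyve1 and the neutrophil genes at the limit were named for their roles after their values were seen. Npr1 and Chtop were named for their distance from S100a16, also after their values were seen. Alternatives were the replicate block, leaving out each library, other filters, median-ratio size factors, counts divided by 4, DESeq2 1.42.0, limma 3.58.1 (voom, and log2(FPKM + 1) and log2(FPKM + 0.1)), the study's call rule and other window sizes. Leaving out both libraries apart on the second component, leaving out the S100a2 row (and S100a3 among the neighbours), counts divided by 4 without a filter and levels per coding transcript were added after the data were seen.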

Additional observations from a re-analysis of the deposited data

How the results depend on the processing

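The fall of S100a16 kept its direction and its call under every alternative run (log2 fold change -1.46 to -1.17, adjusted p at most 0.000163), and the summed FPKM of the other 9 members stayed between 92.1% and 94.4% of WT when each library was left out. Calls among scarce members depend on the filter and the scale. The main fit called 4 members. With a mean of at least 1 CPM or on counts divided by 4, 2 were called (S100a2 and S100a3 then did not pass the filter). Limma called 1 on log2(FPKM + 1) and 2 on log2(FPKM + 0.1). When each library was left out 3 to 4 were called, with S100a1 in place of S100a10 without S100a16KO+/- library 2. S100a10 lost its call in 7 settings, and S100a1 gained one in 2. S100a13 (0.04) ran from -0.0054 without S100a16KO+/- library 3 to 0.063 without S100a16KO+/- library 1. Among other S100 genes, 1 was called with log2(FPKM + 0.1) or by the study's rule. S100 receptors and partners had 1 call with limma on either FPKM scale, 0 by the study's rule, 2 without both libraries apart on the second component, and 1 to 4 when each library was left out. EF-hand genes had 1 call by the study's rule and 4 to 6 when each library was left out. Genes within 1 Mb had 1 call with log2(FPKM + 1), 3 with log2(FPKM + 0.1) and by the study's rule, and 5 to 10 when each library was left out. Within 100 kb 4 of 10 tested were called (40.0%), S100a3 and the S100a2 row among them. Within 5 Mb it was 41 of 170 (24.1%), beside 22.8% of all genes. Of 83 tested cell type markers 34 were called, 10 by the study's rule and 30 to 35 when each library was left out. Over all genes 2228 (log2(FPKM + 1)) to 4077 (counts divided by 4, no filter) were called. Causes of these changes were not tested. The replicate numbers did not pair the libraries (correlations of same-numbered libraries -0.05, -0.02 and 0.05). With the replicate block, 4 members were called as before, and calls went to 2 among S100 receptors and partners and 3082 over all genes. S100a8, S100a6, S100a3 and the S100a2 row held at most 23.75 fragments per library and are limited by counting error.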
